A study of Mus musculus with 31 samples.

Results

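The p53 pathway was followed here through 10 genes, chosen by name: Trp53, which encodes p53 itself, the p53 inhibitors Mdm2 and Mdm4, and 7 stress effectors (Trp53inp1, Gdf15, Btg2, Ccng1, Sesn1, Gadd45a and Gadd45b). They were chosen with earlier results of these data known. All 10 were listed among the 20704 genes of the table of ribosome-protected fragments (RPF) and the 24593 genes of the total RNA table. All 10 passed the filter on low counts in both tables, so each could be tested in every comparison.

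p53 is a transcription factor that Mdm2, a ubiquitin ligase, marks for destruction by the proteasome, while Mdm4 binds p53 and masks its activation domain. Stress frees p53, which then drives genes of growth arrest, repair and death, and also Mdm2, so that the pathway holds its own brake. In the integrated stress response (ISR), kinases phosphorylate the initiation factor eIF2α, which lowers general initiation and favours translation of the activator ATF4. Several stress effectors, Gdf15 and Gadd45a among them, are known to be driven by ATF4 or its partner CHOP as well as by p53.

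The cells were a mouse skin squamous cell carcinoma line with the genotype label HRasG12V:TgfbrIIfl/fl, in which the endogenous eIF2α gene Eif2s1 had been ablated in all groups. A Myc-tagged Eif2s1 transgene driven by the PGK promoter took its place, either S51, which can be phosphorylated and keeps the ISR, or S51A, which cannot and is ISR-null. The study lists both lines as TgfbrII D/D and calls its HRasG12V keratinocytes with fl/fl pre-oncogenic, so label and study differ on this allele. The lines were grown from single cells, and since the clone behind each library is not named, genotype and clone cannot be told apart. Each line received vehicle (DMSO) or 100 nM bortezomib, a proteasome inhibitor, for 4.5 h by the labels. RPF were sequenced in 3 S51 vehicle libraries and in 4 libraries of each of the S51 bortezomib, S51A vehicle and S51A bortezomib groups, and total RNA in 4 libraries per group. The study describes the replicates both as technical and as independent, so p-values measure the spread between these libraries, which may be technical.

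The 10 genes lie on 6 mouse chromosomes (assembly GRCm38.p6). The central genes are Trp53 (chr11:69580348-69591873, plus strand), Mdm2 (chr10:117688875-117710758, minus strand) and Mdm4 (chr1:132986105-133030587, minus strand). The arrest and growth effectors are Btg2 (chr1:134074865-134079155, minus strand), Ccng1 (chr11:40748552-40755309, minus strand), Trp53inp1 (chr4:11156441-11174379, plus strand), Gdf15 (chr8:70629393-70632470, minus strand) and Sesn1 (chr10:41810574-41908436, plus strand). The Gadd45 pair is Gadd45a (chr6:67035096-67037407, minus strand) and Gadd45b (chr10:80930091-80932204, plus strand).

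The p53 response element, 2 adjacent units of 10 bases in its palindromic consensus, was looked for near start sites. The search covered 2000 bases on each side of the RefSeq start sites of 9 of the 10 genes and of 27025 genes in all. Units set apart by other bases and sites farther away were not looked for. Only sites that kept the fixed C and G of each unit were counted, so mismatches lie at the other positions. Trp53inp1 was not scanned. The best match lay 1 mismatch from the consensus at Ccng1 and Gdf15, and 3 mismatches from it at Mdm2, Trp53, Mdm4 and Sesn1. Btg2, Gadd45a and Gadd45b held no such site within 3 mismatches. Of all genes, 0.788% held such a site with at most 1 mismatch and 19.2% one with at most 3. The 6 matches are printed on the strand of their gene, with the element in capitals between 5 bases on each side. Of these genes, Ccng1, Gdf15 and Mdm2 rose under bortezomib in both lines and readouts. Mdm4 rose in the total RNA of S51 cells by a log2 change of 0.99, and Trp53 and Sesn1 were not called. Btg2 (both lines) and Gadd45a (S51 cells) rose without a listed match.
Ccng1: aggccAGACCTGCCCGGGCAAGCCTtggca
Gdf15: aggggTGACTTGCCTGAACTTGCCTtttct
Mdm2: gggctGGTCAAGTTGGGACACGTCCggcgt
Trp53: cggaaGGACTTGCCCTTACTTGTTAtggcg
Mdm4: gttaaAGGCTTGCACCACCTTGCCTggcct
Sesn1: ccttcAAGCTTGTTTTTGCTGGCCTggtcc

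The Ccng1 element (chr11:40755462-40755481) lay 186 bases upstream of a start site, outside the gene. The Gdf15 element (chr8:70631966-70631985) lay 120 bases downstream of one, in an exon outside the coding sequence. The Mdm2 element (chr10:117710105-117710124) lay in an intron, 644 bases into the gene. The Trp53 element (chr11:69580284-69580303) lay 66 bases upstream of a start site, outside the gene. The Mdm4 element (chr1:133029712-133029731) lay in an intron and the Sesn1 element (chr10:41887266-41887285) in an intron of a longer transcript. In the window from 250 bases before to 50 after the start, none of the same 9 genes held the composite motif of ATF and CEBP factors (TGATGNAA, present in 4.51% of 27025 genes on either strand). A match or its absence describes these letters alone and is no evidence of binding.

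Total counts ran from 1038826 to 4902237 in the RPF libraries and from 18758668 to 22994713 in the total RNA libraries. The S51 bortezomib RPF libraries were the shallowest group, with a median of 1564487.5 counts. Keratinocyte markers summed to between 10600 and 15400 CPM (counts scaled to the size of the library) in total RNA, with Krt14 alone at 4790 to 7260 CPM, while 4 of 5 fibroblast markers stood at or under 3 counts in every group. The S51 vehicle libraries had the lowest keratinocyte sum, 10600 to 11200 CPM against 13200 to 15400 CPM in the other groups, and the part of this in the results was not tested. Markers of fibroblasts, immune cells, endothelium and melanocytes each summed to between 1.2 and 7.32 CPM in every library. The targeted gene Eif2s1 was read in every library, at 279 to 314 CPM in total RNA. In RPF it stood at 162, 81.2 and 171 CPM in the S51 vehicle libraries and at 213, 237, 213 and 260 CPM in the S51A vehicle libraries, and transgene and endogenous reads cannot be told apart. S51 vehicle replicate 2 stood apart among the RPF libraries, with a median correlation of 0.949 with its group against 0.967 to 0.987 in the other 14 libraries. The series record states that the titles of the S51 bortezomib and S51A vehicle samples were exchanged after deposit while each sample kept its data. The numbered count columns of these groups were assigned by that record, and all directions below rest on it. The libraries are bulk RNA, in which a change per cell and a change in the share of cells cannot be told apart.

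Bortezomib raised the RPF of Mdm2, Trp53inp1, Gdf15, Btg2 and Ccng1 in both lines, and did not change Trp53 by the threshold used. A gene was called where the adjusted p of edgeR's quasi-likelihood test was below 0.05 and the fold change above 1.5. In S51 cells the RPF of 6 of the 10 genes rose and that of 1 fell, against 7.38% of the 9457 genes tested that rose, 11.2% that fell and 18.6% called in either direction. In S51A cells 5 rose and 0 fell, against 4.19%, 6.67% and 10.9%. At an unadjusted p below 0.05, edgeR placed 1 of the 10 lower in S51A cells, and DESeq2 called 0 lower. In total RNA, 7 rose and 1 fell in S51 cells, against 5.7%, 9.59% and 15.3% of 11708 genes. In S51A cells 5 rose and 0 fell, against 4.54%, 8.57% and 13.1%, with 1 lower at an unadjusted p below 0.05 and 0 lower by DESeq2. Since the 10 genes were chosen with earlier results of these data known, these shares describe the set and do not test it. The 5 genes that rose in RPF also rose in total RNA in each line. Groups without overlap were common among all genes tested. In RPF, bortezomib lay wholly above vehicle for 15.8% and wholly below for 16.5% in S51 cells, and for 13.5% and 14.5% in S51A cells. In total RNA these shares were 26.8% and 27% in S51 and 24.3% and 25% in S51A cells.

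Without S51 vehicle replicate 2, the 7 RPF calls in S51 cells were all kept. The log2 changes were then 3.01 for Mdm2, 4.11 for Trp53inp1, 5.41 for Gdf15, 3.17 for Btg2, 0.80 for Ccng1, 2.53 for Gadd45a and -0.66 for Gadd45b. Gdf15 moved most, from 4.37 to 5.41, and replicate 2 held 7 of its 11 S51 vehicle counts.

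**Figure D1:**
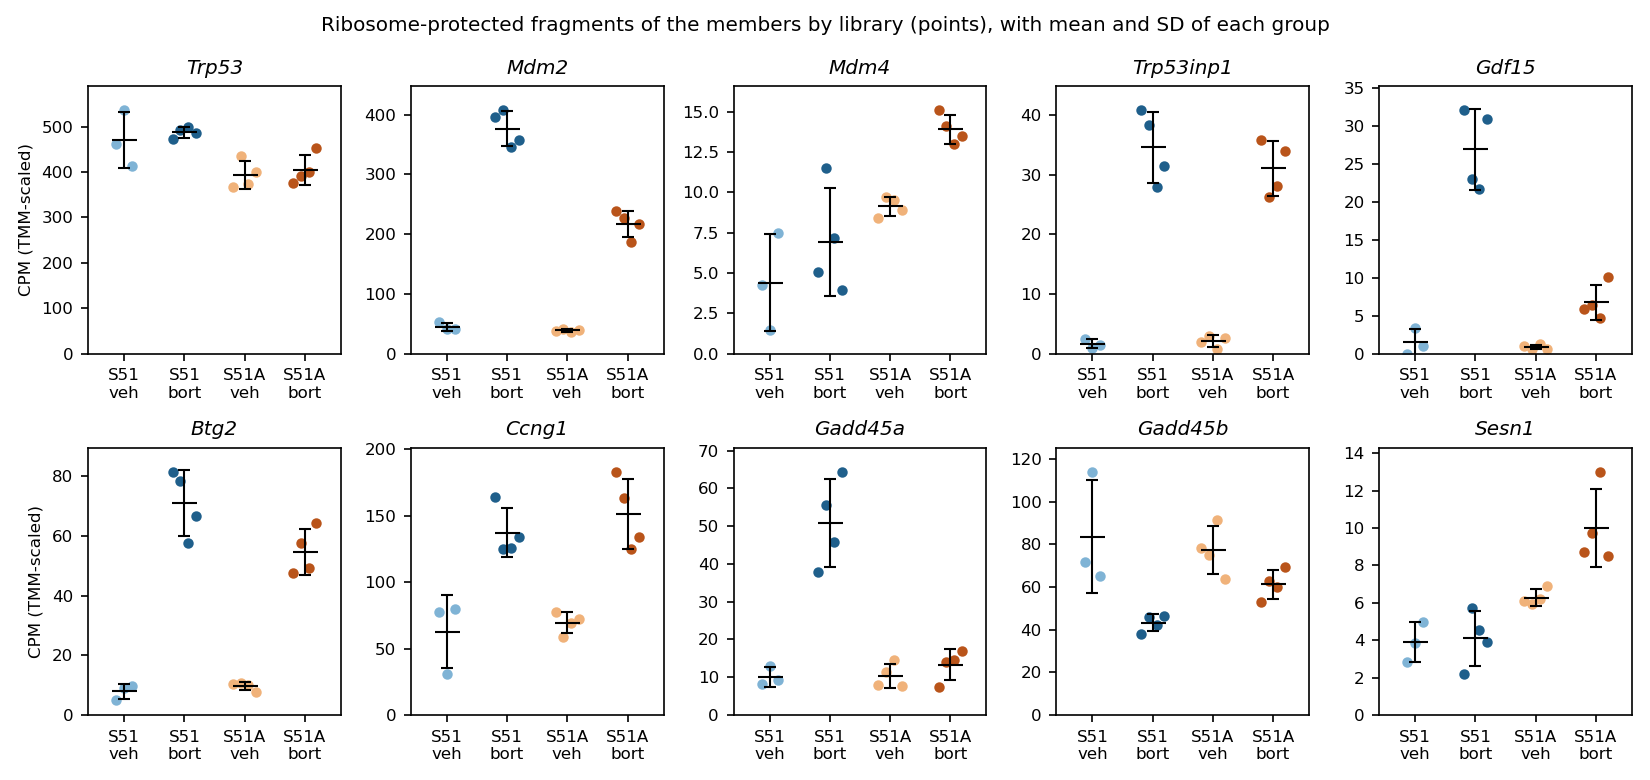
RPF level of each of the 10 genes in each library (points, CPM after TMM scaling, linear axes from 0), by genotype and treatment, with the mean and SD of each group as bars. Mdm2 at 345 to 407 CPM in S51 bortezomib libraries stands clear of 186 to 239 CPM in S51A bortezomib libraries, and Gadd45a is raised in the S51 bortezomib group, at 37.8 to 64.4 CPM.

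Trp53 hardly moved. RPF of Trp53 stood at 462, 536 and 414 CPM in S51 vehicle libraries and 472, 492, 500 and 485 CPM in S51 bortezomib libraries, and the groups overlapped. In S51A cells it stood at 367, 435, 373 and 399 CPM under vehicle and at 376, 391, 401 and 452 CPM under bortezomib, again with overlap. RPF changed by 0.05 (95% interval -0.15 to 0.26) in S51 and 0.04 (-0.15 to 0.23) in S51A cells. Total RNA of Trp53 changed by 0.13 (0.03 to 0.23, edgeR adjusted p = 0.014, under the fold threshold) in S51 and by 0.00 (-0.10 to 0.10) in S51A cells. These reads measure the message and its translation, not the amount of p53 protein, whose removal is the step that the proteasome carries out.

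Mdm2, the ubiquitin ligase of p53, rose in every comparison of bortezomib with vehicle. RPF of Mdm2 stood at 52.4, 40.6 and 41.8 CPM in S51 vehicle and 395, 407, 345 and 358 CPM in S51 bortezomib libraries. S51A cells had 37.8, 41.0, 36.1 and 39.3 CPM under vehicle and 239, 226, 186 and 216 CPM under bortezomib. The vehicle and bortezomib groups did not overlap in either line, and under bortezomib all 4 S51 libraries stood above all 4 S51A libraries. The log2 RPF change was 3.06 (SE 0.114, edgeR adjusted p = 1.54e-13) in S51 and 2.48 (SE 0.105, adjusted p = 2.5e-13) in S51A cells.

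In total RNA, Mdm2 went from between 104 and 116 CPM to between 469 and 539 CPM in S51 cells and from between 93.9 and 103 CPM to between 315 and 364 CPM in S51A cells. The log2 changes were 2.19 (SE 0.0484) and 1.82 (SE 0.049), both smaller than in RPF. The response of S51 exceeded that of S51A by 0.58 in RPF (0.23 to 0.92, adjusted p = 0.0515) and by 0.37 in total RNA (0.22 to 0.52, adjusted p = 0.00046), the RPF value (a fold of 1.49) short of both thresholds and the total RNA value short of the fold threshold. Without S51 vehicle replicate 2 the RPF difference was 0.52 (adjusted p = 0.0291), still under the fold threshold. It was called when S51 vehicle replicate 1 (0.70, adjusted p = 0.0258) or S51A bortezomib replicate 1 (0.63, adjusted p = 0.0417) was left out.

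Mdm4, the partner of Mdm2 in restraining p53, rose in the total RNA of S51 cells, while its RPF change was not called in either line. In total RNA it stood at 84.5, 80.4, 78.2 and 82.0 CPM in S51 vehicle and at 168, 164, 155 and 159 CPM in S51 bortezomib libraries, without overlap. In S51A cells it stood at 89.4, 91.5, 93.8 and 98.0 CPM under vehicle and at 121, 123, 119 and 133 CPM under bortezomib, also without overlap. The log2 change was 0.99 (SE 0.0408, edgeR adjusted p = 5.53e-16) in S51 and 0.41 (SE 0.0409, adjusted p = 6.21e-09, under the fold threshold) in S51A cells. The response difference of 0.58 (0.45 to 0.70, adjusted p = 2.91e-07) fell just under the fold threshold, and it passed it, at 0.60 or 0.61, without S51 vehicle replicate 1, S51 bortezomib replicate 3, S51A vehicle replicate 1 or S51A bortezomib replicate 4.

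The RPF counts of Mdm4 were few, between 3 and 47 per library. Its RPF level was 4.25, 1.45 and 7.47 CPM in S51 vehicle and 5.09, 11.5, 7.19 and 3.92 CPM in S51 bortezomib libraries, which overlapped. S51A cells showed 8.41, 9.71, 9.54 and 8.92 CPM under vehicle and 15.1, 14.1, 13 and 13.5 CPM under bortezomib, which did not. On the log2 scale RPF changed by 0.43 (-0.40 to 1.26, adjusted p = 0.41) in S51 and 0.61 (0.05 to 1.16, adjusted p = 0.0931) in S51A cells, and neither was called. The S51A value was called without S51 vehicle replicate 2 (adjusted p = 0.0254).

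**Figure D2:**
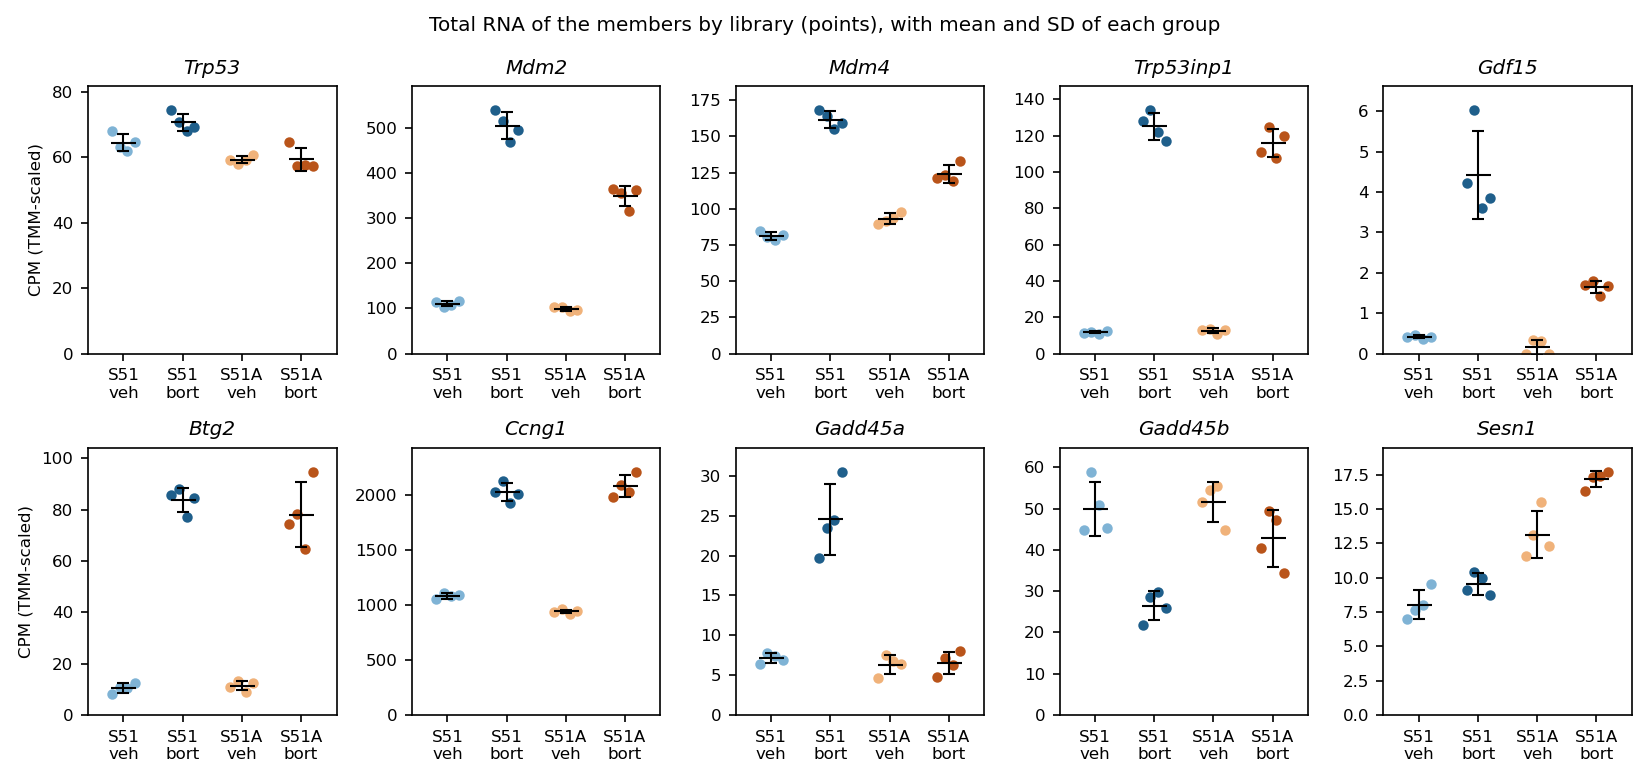
Total RNA level of each of the 10 genes in each library (points, CPM after TMM scaling, linear axes from 0), by genotype and treatment, with the mean and SD of each group as bars. Mdm4 stands at 155 to 168 CPM in S51 bortezomib libraries against 119 to 133 CPM in S51A bortezomib libraries, and Gadd45a stays between 4.70 and 8.03 CPM in all 8 S51A libraries.

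Trp53inp1, a stress protein known to promote p53 activity and autophagy, had one of the steepest rises. Its RPF level was 2.48, 0.967 and 1.49 CPM in S51 vehicle and 40.8, 38.3, 28.0 and 31.4 CPM in S51 bortezomib libraries. S51A cells held 1.87, 2.96, 0.83 and 2.64 CPM under vehicle and 35.8, 26.3, 28.1 and 34.0 CPM under bortezomib. The lines overlapped under each treatment, and the treatments did not overlap in either line. The log2 RPF change was 4.29 (SE 0.397, edgeR adjusted p = 5.46e-10) in S51 and 3.75 (SE 0.289, adjusted p = 2.56e-10) in S51A cells. With only 15 RPF counts in the S51 vehicle libraries against 226 under bortezomib, the ratio was 19.6 with an exact 95% counting interval of 11.6 to 35.6, an interval that covers counting error only. Total RNA, with 211 or more counts in every library, gave 3.43 (SE 0.0693) in S51 and 3.21 (SE 0.0684) in S51A cells.

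Gdf15, a secreted stress cytokine, was the scarcest of the 10 genes under vehicle and rose in both lines. RPF gave 0, 3.38 and 0.996 CPM in S51 vehicle and 32, 23, 21.6 and 30.8 CPM in S51 bortezomib libraries. S51A cells gave 0.935, 0.634, 1.24 and 0.608 CPM under vehicle and 5.80, 6.33, 4.68 and 10.1 CPM under bortezomib. The S51 bortezomib libraries all stood above the S51A bortezomib libraries, and the vehicle libraries of the lines overlapped.

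The ratio of RPF counts was 21.3 in S51 cells (180 against 11 counts, exact 95% counting interval 11.6 to 43.4) and 8.83 in S51A cells (66 against 11 counts, 4.63 to 18.5). The fitted log2 changes were 4.37 (SE 0.561, edgeR adjusted p = 7.51e-08) and 3.05 (SE 0.582, adjusted p = 8.02e-05). In total RNA the levels were 0.367 to 0.464 CPM under vehicle and 3.6 to 6.02 CPM under bortezomib in S51 cells, and 0 to 0.323 and 1.42 to 1.79 CPM in S51A cells. Both lines changed by 3.40 on the log2 scale (SE 0.352 in S51 and 0.559 in S51A). The response difference of Gdf15 was 1.31 in RPF (-0.47 to 3.09, adjusted p = 0.464) and 0.00 in total RNA (-1.44 to 1.44). S51 vehicle replicate 2 held 7 of the 11 RPF counts of its group, and without it the RPF difference was 2.35 (adjusted p = 0.124). None of these differences was called, and the part of depth in this was not tested.

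Btg2, an antiproliferative protein that recruits mRNA deadenylases, rose to a similar level in both lines. RPF of Btg2 stood at 4.96, 9.19 and 9.71 CPM in S51 vehicle and 81.5, 78.4, 57.5 and 66.7 CPM in S51 bortezomib libraries. The S51A libraries had 10.3, 10.8, 9.96 and 7.71 CPM under vehicle and 47.7, 57.5, 49.4 and 64.2 CPM under bortezomib. The treatments were apart in each line and the lines overlapped under each treatment. Log2 RPF rose by 3.11 (SE 0.224, edgeR adjusted p = 2.45e-10) in S51 and 2.51 (SE 0.184, adjusted p = 1.08e-09) in S51A cells, with a difference of 0.60 (-0.04 to 1.24, adjusted p = 0.308). Total RNA of Btg2 rose by 2.99 (SE 0.117) and 2.77 (SE 0.115).

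Ccng1, which encodes cyclin G1, a p53 target that works with the phosphatase PP2A on Mdm2, had the most abundant message of the 10 and a modest rise. Its RPF level was 77.2, 30.9 and 79.7 CPM in S51 vehicle and 164, 125, 126 and 134 CPM in S51 bortezomib libraries. The S51A libraries held 77.6, 58.9, 68.9 and 72.2 CPM under vehicle and 183, 163, 125 and 134 CPM under bortezomib. Replicate 2 of S51 vehicle was the low one of its group, and no vehicle library reached a bortezomib library. The RPF response was 1.09 (SE 0.207, edgeR adjusted p = 0.000421) in S51 and 1.14 (SE 0.183, adjusted p = 9.64e-05) in S51A cells. In total RNA it was 0.90 (SE 0.0348) and 1.14 (SE 0.0348), from between 919 and 1110 CPM to between 1930 and 2210 CPM, and the response was smaller in S51 by 0.24 (adjusted p = 0.00123, under the fold threshold).

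Sesn1, a sestrin that restrains TOR signalling and oxidative damage, was the effector with no called response to bortezomib in either line or readout. Its RPF level was 2.83, 3.87 and 4.98 CPM in S51 vehicle and 2.18, 5.74, 4.54 and 3.92 CPM in S51 bortezomib libraries, on 3 to 20 counts each. The S51A libraries gave 6.07, 5.91, 6.22 and 6.90 CPM under vehicle and 8.70, 9.75, 13 and 8.51 CPM under bortezomib. The S51 treatment groups overlapped and the S51A groups did not. The response in RPF was 0.03 (-0.74 to 0.79) in S51 and 0.63 (0.13 to 1.14, edgeR adjusted p = 0.0537) in S51A cells. Total RNA changed by 0.24 (adjusted p = 0.0434) and 0.39 (adjusted p = 0.000586), both under the fold threshold. The S51A RPF value was called without S51 vehicle replicate 2 (adjusted p = 0.0441) and without S51 bortezomib replicate 1 (adjusted p = 0.0465).

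**Figure D3:**
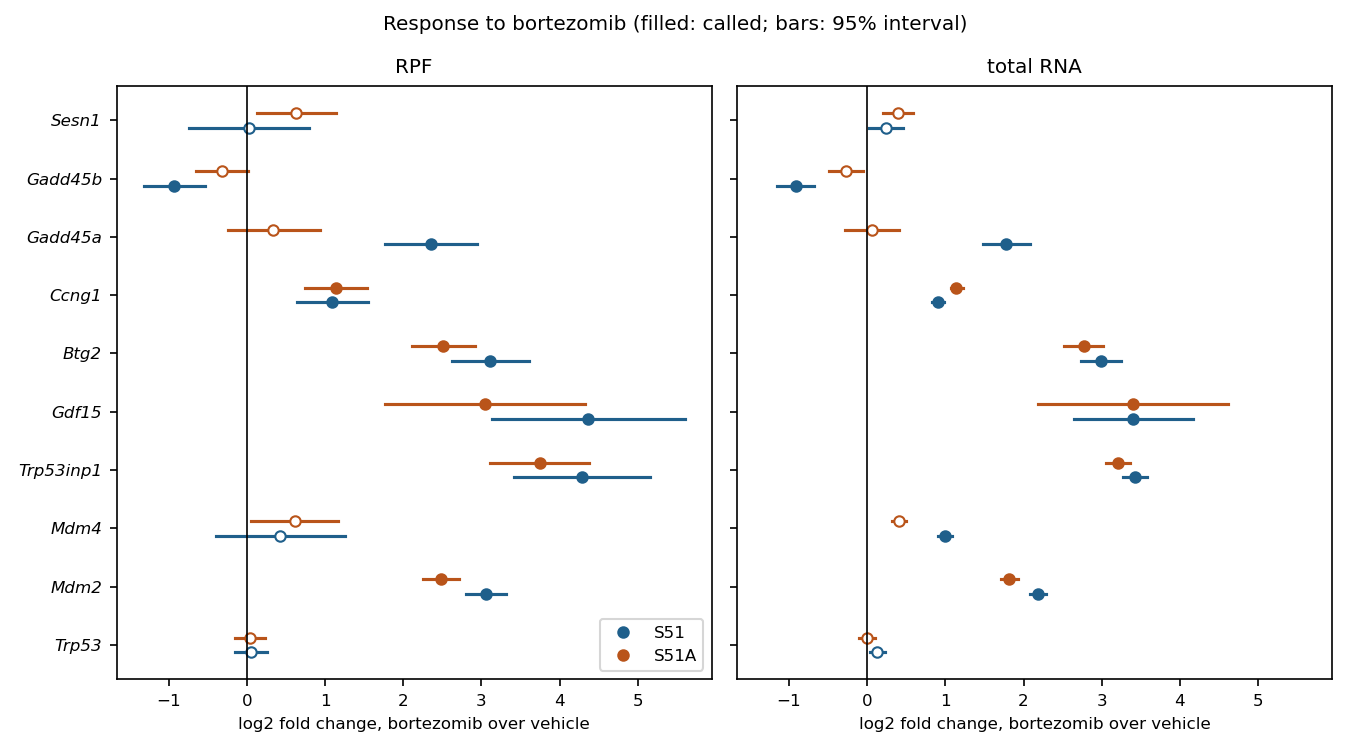
Log2 fold change of bortezomib over vehicle for the 10 genes in RPF and in total RNA, in S51 (blue) and S51A (orange) cells, with 95% intervals as bars and called genes filled. The intervals of the lines do not meet for Gadd45a and Mdm2 in RPF, and for Gadd45a, Gadd45b, Mdm2, Mdm4 and Ccng1 in total RNA. The RPF changes of Gadd45a were 2.36 in S51 and 0.34 in S51A cells.

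The Gadd45 proteins bind stress kinases and DNA repair factors, and the pair followed here moved in opposite directions in S51 cells. Gadd45a had RPF levels of 8.15, 13.1 and 9.21 CPM in S51 vehicle and 37.8, 55.5, 45.8 and 64.4 CPM in S51 bortezomib libraries. In S51A cells it had 7.94, 11.4, 14.5 and 7.71 CPM under vehicle and 7.41, 14.1, 14.6 and 17.0 CPM under bortezomib. The S51 treatment groups were apart, and the S51A groups overlapped. The log2 RPF change was 2.36 (SE 0.269, edgeR adjusted p = 5.29e-07) in S51 and 0.34 (-0.24 to 0.93, adjusted p = 0.401) in S51A cells. The difference between the responses was 2.01 (1.18 to 2.84, adjusted p = 0.00365), and 2.19 (adjusted p = 3.58e-05) without S51 vehicle replicate 2.

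The message of Gadd45a did the same. Its total RNA level was 6.44, 7.80, 7.44 and 6.86 CPM in S51 vehicle and 19.7, 23.5, 24.5 and 30.5 CPM in S51 bortezomib libraries. S51A cells stood at 4.70, 7.48, 6.72 and 6.35 CPM under vehicle and 4.71, 7.16, 6.28 and 8.03 CPM under bortezomib. The log2 change was 1.78 (SE 0.136, adjusted p = 3.33e-11) in S51 and 0.06 (-0.29 to 0.41) in S51A cells, and the response difference was 1.72 (1.26 to 2.18, adjusted p = 4.26e-06). The gene E230016M11Rik overlaps exons of Gadd45a on the opposite strand and had 10 to 47 total RNA counts per library, against 95 to 597 for Gadd45a, and the sources used here do not say whether strand was used in counting.

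Gadd45b fell in S51 cells. RPF of Gadd45b stood at 71.9, 114 and 65.0 CPM in S51 vehicle and 37.8, 45.9, 42.4 and 46.5 CPM in S51 bortezomib libraries, without overlap. S51A cells read 78.5, 75.2, 91.3 and 63.9 CPM under vehicle and 53.2, 62.9, 59.8 and 69.3 CPM under bortezomib, with overlap. The log2 RPF change was -0.93 (SE 0.176, edgeR adjusted p = 0.000364) in S51 and -0.32 (-0.65 to 0.01, adjusted p = 0.136) in S51A cells, with a difference of -0.61 (-1.11 to -0.10, adjusted p = 0.189). Total RNA changed by -0.91 (SE 0.107, adjusted p = 7.06e-08) in S51 and by -0.27 (SE 0.102, adjusted p = 0.0278, under the fold threshold) in S51A cells. The total RNA difference of -0.65 (adjusted p = 0.00274) was called, but dropped under the fold threshold, to between -0.58 and -0.56, without S51 vehicle replicate 2, S51 bortezomib replicate 1, S51A vehicle replicate 4 or S51A bortezomib replicate 2.

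The test of the difference between responses thus called 1 of the 10 genes in RPF (Gadd45a), against 1.86% of all genes tested, and 2 in total RNA (Gadd45a and Gadd45b), against 2.09%. A call in one line and not in the other does not by itself show a different response. For Gadd45b in RPF the response difference had an edgeR adjusted p of 0.189. For Mdm4 in total RNA the edgeR adjusted p was 2.91e-07, and the difference missed only the fold threshold, at a fold of 1.49. The response difference rests on the same libraries as the comparisons of each line, and the values are given side by side for that reason.

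Between the lines, Mdm4 RPF and Sesn1 and Gdf15 RNA were called under vehicle, and 5 genes in RPF under bortezomib. Under vehicle 1 of the 10 genes was called in RPF and none of them higher, against 6.62% of all genes that were higher, 9.19% lower and 15.8% in either direction. At an unadjusted p below 0.05, 1 was higher, and DESeq2 called 0 higher. That gene was Mdm4, lower in S51 by a log2 difference of -0.90 (-1.62 to -0.18, edgeR adjusted p = 0.0356). The call was lost without S51 vehicle replicate 1 or 2 or S51A vehicle replicate 2, 3 or 4, with adjusted p between 0.0597 and 0.118, and the difference was -0.59 without S51 vehicle replicate 2. In total RNA under vehicle, Gdf15 was higher by 1.42 (0.07 to 2.77, adjusted p = 0.0332) and Sesn1 lower by -0.70 (SE 0.0972, adjusted p = 9.28e-07), against 6.29% higher, 11.2% lower and 17.5% in either direction. The Gdf15 value rests on 36 counts in S51 and 13 in S51A libraries (ratio 2.75, exact 95% counting interval 1.42 to 5.64). It lost its call without S51 vehicle replicate 2 or 4 or S51A vehicle replicate 1 or 4 (adjusted p between 0.0553 and 0.111).

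Under bortezomib, 3 of the 10 genes were higher and 2 lower in the RPF of S51 cells, against 7.66% of all genes higher, 10% lower and 17.7% in either direction. Gdf15 was higher by 1.96 (SE 0.306, edgeR adjusted p = 2.98e-05), Gadd45a by 1.96 (SE 0.24, adjusted p = 1.65e-06) and Mdm2 by 0.79 (SE 0.0946, adjusted p = 1.82e-06). Mdm4 was lower, at -1.08 (SE 0.315, adjusted p = 0.00961), and so was Sesn1, at -1.26 (SE 0.301, adjusted p = 0.00193). All 5 were apart by library, as were 16.5% of all genes tested with S51 above and 17.9% with S51 below. Trp53 stood 0.27 higher in S51 (0.07 to 0.46, adjusted p = 0.0235), under the fold threshold but apart by library. Its total RNA was higher in S51 by 0.12 under vehicle (adjusted p = 0.0212) and by 0.25 under bortezomib (adjusted p = 3.17e-05). Both were under the fold threshold and apart by library, as were 28.6% and 28.3% of all genes with S51 above. In RPF, Trp53inp1, Btg2 and Ccng1 overlapped between the lines. Gadd45b RPF was lower in every S51 than in every S51A library, at -0.50 (-0.88 to -0.13, adjusted p = 0.0277), also under the fold threshold.

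Total RNA under bortezomib gave 2 genes higher, Gdf15 by 1.42 (SE 0.23, edgeR adjusted p = 5.3e-06) and Gadd45a by 1.90 (SE 0.141, adjusted p = 1.15e-11). It gave 2 lower, Gadd45b at -0.69 (SE 0.109, adjusted p = 5.14e-06) and Sesn1 at -0.85 (SE 0.0939, adjusted p = 2.08e-08), against 8.23% of all genes higher, 11.7% lower and 20% in either direction. Mdm4 differed in sign between the readouts, its message being higher in S51 by 0.38 (0.29 to 0.47, adjusted p = 1.06e-08, under the fold threshold) where its RPF was lower. Sesn1 was lower in S51 in all 4 genotype comparisons, with groups apart by library in each, and called in 3 of them. Every S51 library lay below every S51A library for 17.4% of all genes in RPF under vehicle and 17.9% under bortezomib. In total RNA these shares were 28% and 28.7%.

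**Figure D4:**
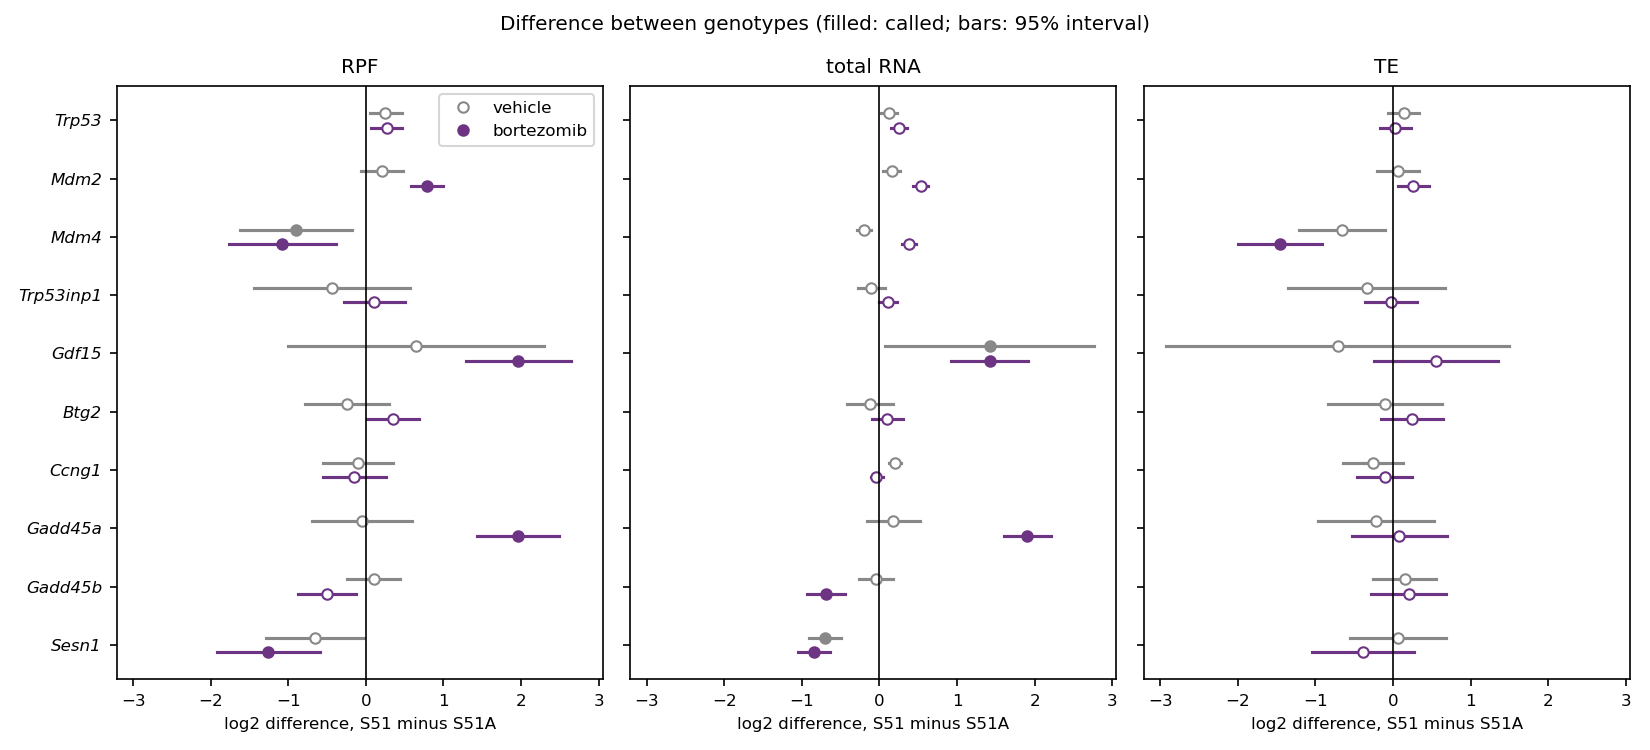
Log2 difference of S51 minus S51A cells for the 10 genes in RPF, in total RNA and in translational efficiency (TE, the RPF difference minus the total RNA difference), under vehicle (grey) and bortezomib (purple), with 95% intervals as bars and called genes filled. In the TE panel the called point is Mdm4 under bortezomib at -1.46, with vehicle at -0.66.

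Translational efficiency (TE), the log2 RPF change minus the log2 total RNA change in a joint model of all 31 libraries, was called for 2 of the 10 genes, both of them p53 inhibitors. In response to bortezomib, 1 of the 10 genes was called in S51 cells, against 5.16% of 9424 genes tested, and 1 in S51A cells, against 0.944%. In both lines it was Mdm2, whose TE rose by 0.88 (0.63 to 1.13, edgeR adjusted p = 1.25e-06) in S51 and by 0.68 (0.45 to 0.91, adjusted p = 9.47e-05) in S51A cells. The difference between the lines, 0.20 (-0.14 to 0.55, adjusted p = 0.692), was not called. Mdm2 thus gained RPF beyond its gain in message in both lines.

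Mdm4 was the 1 gene called between the lines in TE under bortezomib, against 2.98% of all genes. Its TE was lower in S51 by -1.46 (-2.00 to -0.92, adjusted p = 0.000114). Under vehicle the difference was -0.66 (-1.21 to -0.11, adjusted p = 0.26), and the difference in TE response was -0.80 (-1.57 to -0.03, adjusted p = 0.377), neither called. In vehicle-treated cells 0 of the 10 were called in TE by edgeR, against 0.0849% of all genes, with 1 at an unadjusted p below 0.05. For the TE response difference 0 were called, against 1.29%, with 1 at an unadjusted p below 0.05, and limma-voom called 0 and 1. The TE difference of Trp53 lay between -0.11 and 0.14 in each of the 5 comparisons.

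Levels per length set the genes beside each other, as RPF CPM per kilobase of counted coding sequence and total RNA CPM per kilobase of exon. In S51 vehicle cells, Trp53 led in RPF at 423 CPM per kilobase, followed by Gadd45b at 197, Ccng1 at 75.9, Mdm2 at 31.9, Gadd45a at 23.1 and Btg2 at 19.1. Mdm4 (3.11), Trp53inp1 (2.50), Sesn1 (2.44) and Gdf15 (1.71) lay close together at the bottom. Under bortezomib the order in S51 cells was Trp53 (438), Mdm2 (267), Btg2 (170), Ccng1 (166), Gadd45a (116), Gadd45b (102), Trp53inp1 (52.4), Gdf15 (31.5), Mdm4 (4.90) and Sesn1 (2.57). Mdm2 thus moved up to the place next to p53 itself.

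The order in total RNA was different. Ccng1 led there, at 308 CPM per kilobase in S51 vehicle and 577 in S51 bortezomib cells, where Trp53 stood at 28.2 and 30.9. The ratio of RPF to total RNA per length put Trp53 at the 98 to 98.1 percentile of 9410 genes in each group, and Ccng1 between the 0.436 and 1.16 percentiles. Mdm4 lay between the 0.595 and 4.46 percentiles, with the higher values in S51A cells. These ratios are not absolute, since the 2 kinds of library were counted over different parts of a transcript. Trp53-ps, a pseudogene of p53, was not analysed here, and the part of reads shared with it was not tested.

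**Figure D5:**
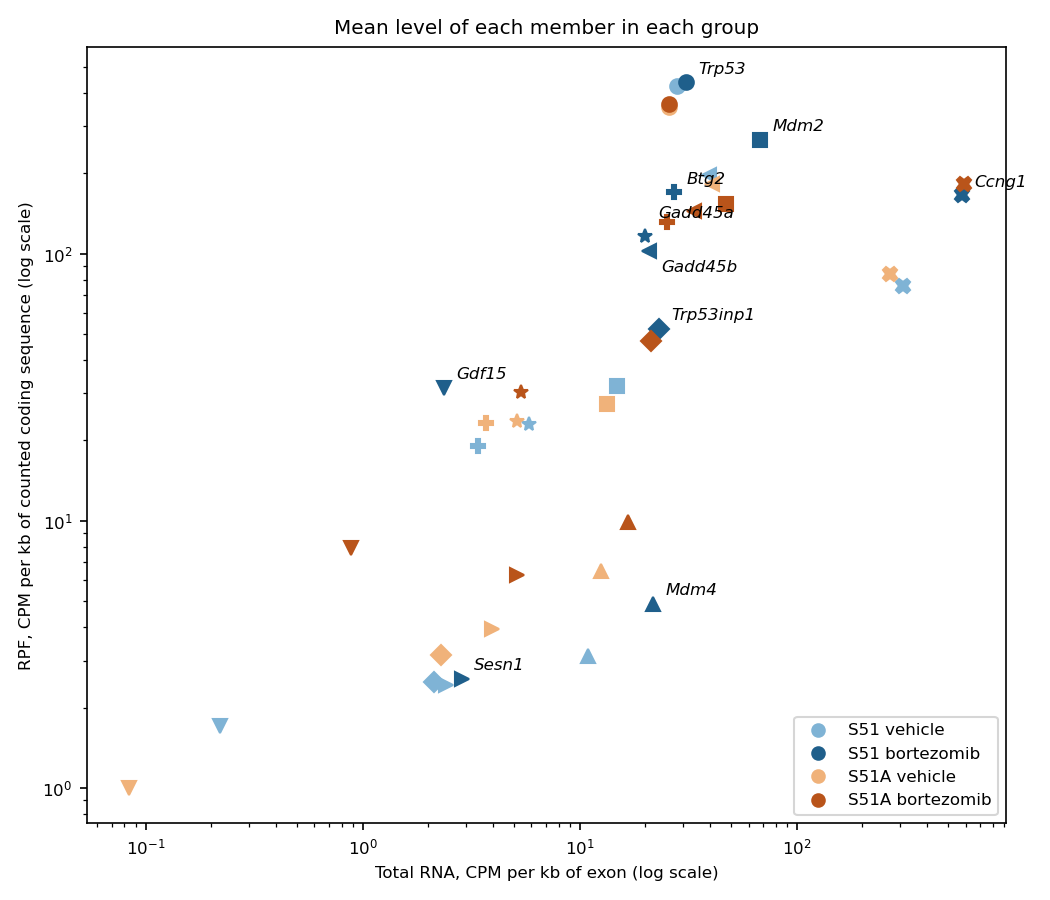
Mean level of each gene in each group, total RNA (x, CPM per kilobase of exon) against RPF (y, CPM per kilobase of counted coding sequence), both on log scales. Symbol shapes mark genes, with each name beside the S51 bortezomib point, and colours mark groups, so that the 4 points of Trp53 lie together near 354 to 438 on the RPF axis and those of Mdm2 rise from 27.4 and 31.9 to 154 and 267.

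The wider list of p53 targets had rises in both lines and no falls past the threshold. This list and those that follow were also chosen with earlier results known, so the shares beside their counts are a description. Of 27 targets tested in RPF, 11 rose and 0 fell in S51 cells (median log2 change 0.57, against 0 for all genes), and 10 rose and 0 fell in S51A cells (median 0.38, against -0.01 for all genes). The shares over all genes were 7.38% higher and 11.2% lower in S51 cells and 4.19% and 6.67% in S51A cells. At an unadjusted p below 0.05, 0 and 1 were lower. Total RNA called 12 of 29 higher in S51 and 11 in S51A cells, with 0 lower in each and 4 lower in each at an unadjusted p below 0.05 (medians 0.30 and 0.38), against 5.7% higher and 9.59% lower over all genes in S51 cells and 4.54% and 8.57% in S51A cells.

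The largest RPF rises of that list in S51 cells were those of the death receptor Fas (3.16, SE 0.655), the BH3 protein gene Pmaip1 (2.76, SE 0.177) and the translesion polymerase gene Polk (2.74, SE 0.19). In S51A cells the same genes rose by 1.76, 2.17 and 1.82. The smallest called rises were those of the repair nuclease gene Ercc5 (0.95), the nuclease gene Aen (0.88) and the RNA-binding Zmat3 (0.79), with 0.49, 1.02 and 0.99 in S51A cells, where Ercc5 was under the fold threshold. Cdkn1a, the p21 gene, named here after its values were seen, rose by 2.72 in S51 and 2.54 in S51A cells. By the test of the response difference, 1 of the 27 was called in RPF, Polk at 0.92 (edgeR adjusted p = 0.0462), against 1.86% of all genes.

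Among upstream regulators of p53, genes were called in both directions in S51 cells. Of 20 tested in RPF, 3 rose and 2 fell in S51 cells (median -0.02). Of all genes, 7.38% rose, 11.2% fell and 18.6% were called in either direction there. In S51A cells, against 10.9% of all genes, 0 rose and 0 fell by edgeR, with 2 higher and 6 lower at an unadjusted p below 0.05. The genes that rose encode the ligases Huwe1 (0.66) and Rchy1 (0.72) and the DNA-damage kinase Prkdc (0.72). Those that fell were Rpl11 (-1.04, SE 0.0781) and Rpl23 (-0.78, SE 0.114), ribosomal proteins that can bind Mdm2. In S51A cells the RPF values of the latter were -0.35 and -0.53. The RPF response difference was called for Rpl11 (-0.69, edgeR adjusted p = 0.000589) and Huwe1 (0.61, adjusted p = 0.0154), against 1.86% of all genes. In total RNA edgeR called 0 of the 20 in either line, against 15.3% of all genes in S51 and 13.1% in S51A cells, with 11 higher and 2 lower in S51 and 7 each way in S51A cells at an unadjusted p below 0.05.

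The paralogs of the effectors split. Of 10 tested in RPF, 3 rose and 1 fell in S51 cells, and 4 rose and 1 fell in S51A cells. Of all genes, 7.38% rose and 11.2% fell in S51 cells, and 4.19% and 6.67% in S51A cells. In either direction the shares were 18.6% and 10.9%. The sestrin Sesn2 rose by 1.85 (SE 0.162) in S51 and 1.58 (SE 0.156) in S51A cells, where Sesn1 was not called. The antiproliferative Tob1 and Btg1, kin of Btg2, rose by 1.04 and 1.03 in S51 and by 0.77 and 0.73 in S51A cells. The keratinocyte p53 paralog Trp63 fell, by -1.33 in S51 and -1.04 in S51A cells. The remaining Gadd45 gene, Gadd45g, was named after its values were seen. It was the 1 paralog with a called response difference, -1.20 in RPF and -1.17 in total RNA, opposite in sign to Gadd45a. Of all genes, 1.86% had a called response difference in RPF and 2.09% in total RNA. Gadd45g rose in S51A cells by 1.29 in RPF.

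Targets of ATF4 and CHOP, the factors of the ISR, were followed for comparison. Of 12 tested in RPF, 8 rose and 0 fell in S51 cells (median 0.97) and 2 rose and 1 fell in S51A cells (median 0.23). Of all genes, 7.38% were higher and 11.2% lower in S51 cells, and 4.19% higher and 6.67% lower in S51A cells. Ddit3, the CHOP gene, rose by 2.94 in S51 cells (0.52 in S51A, not called), and the phosphatase subunit gene Ppp1r15a by 2.77 (0.65 in S51A, not called). The TOR inhibitor gene Ddit4 rose by 2.52 in S51 and 2.53 in S51A cells. The smaller rises in S51 were those of Trib3 (1.13), Slc7a11 (0.80) and Chac1 (0.69), and Chac1 fell in S51A cells by 0.90 on the log2 scale. The response difference in RPF was called for 3 of the 12, Ddit3 (2.42), Ppp1r15a (2.12) and Chac1 (1.59), against 1.86% of all genes. Sesn2 is on the list of paralogs as well as on this one.

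By their pattern over the 16 total RNA libraries, which share the 4 groups, each gene was set beside its nearest neighbours by Pearson's r of log2 CPM, as a description. Mdm2 was closest to Zfand5 and Ercc5 (both r = 0.995), Trp53inp1 to Susd6 (0.998) and Hspa1b (0.997), Btg2 to Trp53inp1 (0.995) and Ccdc117 (0.994), and Ccng1 to Pmm1 and Gosr2 (both 0.995). Mdm4 was closest to Tubb5 (0.990) and Kif18b (0.985), and Sesn1 to Mtch2 (0.978) and Hsd17b12 (0.974). Gdf15 was closest to Rpl10a (0.971) and Zfp365 (0.965), Gadd45a to Stag2 (0.969) and Kdm4a (0.955), Gadd45b to Gemin7 (0.942) and Zfp40 (0.941), and Trp53 to H2ac7 (0.944) and Larp1 (0.940).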

How the data were processed

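Ribosome-protected fragments (RPF, 15 libraries) and total RNA (16 libraries) of S51 and S51A squamous cell carcinoma cells under vehicle or bortezomib were analysed from 2 tables of raw counts per gene. To make the deposited counts, the authors trimmed reads with FastX, aligned them with bowtie2 to mm10 and counted uniquely mapped reads (plastid in the methods, featureCounts in the processing notes, versions not given in the sources used here). RPF were counted in coding sequence without its first 15 and last 5 codons, total RNA of merged runs over genes. Strand use in counting is not given in the sources used here. Column names record that ribosomal RNA was removed and repeats were masked.

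Genes passing filterByExpr (at least 10 counts in enough libraries, 15 in total) were tested over all groups with edgeR 4.0.16 (quasi-likelihood, TMM scaling, R 4.3.3), with Benjamini-Hochberg adjustment over all genes tested. Calls needed both a fold above 1.5 and an adjusted p under 0.05. Translational efficiency (TE) was a contrast in a joint model of all 31 libraries. The study took RPF and total RNA from the same lysates, but this model did not tie the libraries of a lysate. SE are Wald errors and intervals are 95%. Total counts per library set the precision, so that RPF of genes with few counts have wide intervals. The labels name no batch. The closest pair of libraries of a group differed by more than sampling noise (chi-square per gene 1.66 in RPF and 2.78 in total RNA, where 1 is noise). The tests were tested on simulated counts. Alternatives were DESeq2 1.42.0, limma-voom 3.58.1 for TE, other scaling, filters and thresholds, a replicate block, a lysate block for TE and leaving out each library.

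The 10 genes and the gene lists were chosen with earlier results of these data known. The text names all 10 and, from each list, the 3 highest and 3 lowest called RPF changes in S51 cells, with other genes marked as named after their values were seen. Cell type markers were looked at by their summed levels. Sequences and annotation are from RefSeq (GRCm38.p6), and 9 of the 10 genes matched its promoter table. Proteins were not used here.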

Additional observations from a re-analysis of the deposited data

Results flagged for a closer look

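The response to bortezomib differed between the lines, by the test of the difference itself, for Gadd45a in RPF (S51 minus S51A log2 change of 2.01) and total RNA (1.72), and for Gadd45b in total RNA (-0.65). The Gadd45b value lost its call when each of 4 single libraries was left out in turn, as given with it above.

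One library of a group lay far from the rest in 3 of the 70 groups examined, and chance alone gives about 5%. Trp53 total RNA was 64.8 CPM in S51A bortezomib replicate 1, with the other libraries between 57.5 and 57.7 CPM. Mdm2 total RNA was 315 CPM in S51A bortezomib replicate 3, with the others between 356 and 364 CPM. Trp53inp1 total RNA was 10.6 CPM in S51A vehicle replicate 3, with the others between 13 and 13.4 CPM.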

How the results depend on the processing

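No alternative reversed the direction of a called value. The number of the 10 genes called, out of the main count given first, moved by over 1.5 times or to or from 0 as follows. Without the fold threshold it went from 1 to 2 (RPF, lines under vehicle), from 5 to 8 (total RNA, S51A response), from 2 to 6 (total RNA, lines under vehicle), from 4 to 7 (total RNA, lines under bortezomib) and from 2 to 5 (total RNA response difference). At a fold above 2 it went from 1 to 0 (RPF, lines under vehicle), from 8 to 5 (total RNA, S51 response), from 2 to 1 (total RNA, lines under vehicle), from 4 to 2 (total RNA, lines under bortezomib), from 2 to 1 (total RNA response difference) and from 1 to 0 (TE, each response). With 10 counts required in every library it went from 5 to 3 (RPF, S51A response), from 1 to 0 (RPF, lines under vehicle), from 5 to 2 (RPF, lines under bortezomib), from 2 to 1 (total RNA, lines under vehicle) and from 1 to 0 (TE, lines under bortezomib), where Gdf15, Mdm4, Sesn1 or Trp53inp1 were no longer tested. With only the groups compared in the fit it went from 1 to 0 (RPF) and from 2 to 1 (total RNA) for the lines under vehicle. Library sizes alone gave 2 in place of 1 for the RPF response difference, the second being Mdm2, and shifted the median of all genes in total RNA to -0.16 in the S51 and -0.13 in the S51A response and in TE to 0.15 in the S51 response. By limma-voom, Gdf15 was added to TE in S51 cells (2 in place of 1) and to the TE response difference (1 in place of 0). Smaller moves were those of the RPF S51A response, from 5 to 7 with only the groups compared in the fit (Mdm4, adjusted p = 0.0152, and Sesn1, adjusted p = 0.0384, added) and to 6 with RLE size factors (Sesn1, adjusted p = 0.0495), so that these calls depend on the fit. The RPF S51 response went from 7 to 6 at a fold above 2 and to 5 with the count filter, the RPF lines under bortezomib from 5 to 7 without the fold threshold and to 4 at a fold above 2, and total RNA from 8 to 10 without the fold threshold and to 7 with the filter (S51 response), from 5 to 4 (S51A response) and from 4 to 3 (lines under bortezomib) with the filter.

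Leaving out 1 library at a time gave 5 to 7 for the RPF S51A response, 0 to 1 for RPF and 1 to 2 for total RNA between the lines under vehicle, 1 to 2 for the RPF and 1 to 3 for the total RNA response difference, and 0 to 1 for TE under vehicle. The other 9 counts did not move. DESeq2 gave the same counts as edgeR in the 10 RPF and total RNA comparisons.

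The replicate numbers shared by the groups were not treated as pairing the libraries, since the labels name no shared batch. For same-numbered libraries of different groups, r of the deviations from the group means was taken. In total RNA r was 0.09 to 0.54, above 0 in every such pair (median 0.32, against -0.1 for different numbers). In RPF it was -0.46 to 0.56 (median 0.13, against -0.06). In 15 of 16 total RNA and 10 of 15 RPF libraries the closest deviations were those of the same number, a hint from the data and not from the design. With the number as a replicate block, 6 in place of 5 genes were called in the RPF S51A response, Sesn1 being added (0.65, adjusted p = 0.045), and the other counts stayed at 7, 1, 5 and 1 in RPF, at 8, 5, 2, 4 and 2 in total RNA and at 1, 1, 0, 1 and 0 in TE. RPF and total RNA libraries of the same group and number, taken as those of a lysate, had r of -0.06 to 0.35 (median 0.11, against -0.03 for different numbers). With the lysate as a block in the TE model, no TE call of the 10 genes changed. RPF depth limits Gdf15, Mdm4, Sesn1 and vehicle Trp53inp1, with under 50 counts in every vehicle library.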

Other observations

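ATF4 and CHOP targets differed between the lines before treatment. In RPF under vehicle 7 of 12 were higher in S51 than in S51A cells and 0 lower, against 6.62% and 9.19% of all genes, and under bortezomib 11 of 12 were higher, against 7.66%. In total RNA the counts were 6 of 13 higher and 1 lower under vehicle and 12 of 13 higher under bortezomib, against 6.29% higher and 11.2% lower of all genes under vehicle and 8.23% higher under bortezomib. Of the p53 targets, 2 of 27 were higher and 1 lower in RPF under vehicle, and 4 higher and 1 lower under bortezomib, against 6.62% and 9.19% of all genes under vehicle and 7.66% and 10% under bortezomib.

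TE of the ribosomal protein genes among the p53 regulators, named here after their values were seen, fell in both lines under bortezomib. Log2 TE changed by -1.16 for Rpl11, -0.82 for Rpl5 and -0.86 for Rpl23 in S51 cells and by -0.60, -0.81 and -0.78 in S51A cells, all called by edgeR. Of the 20 regulators, TE was called higher for 1 and lower for 4 in S51 cells, and higher for 0 and lower for 3 in S51A cells. The shares of all genes called in either direction were 5.16% and 0.944%. TE of Crebbp, a coactivator of p53, fell by 0.90 in S51 cells. Its TE response difference was called (-0.95, edgeR adjusted p = 0.0012), against 1.29% of all genes.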
